A study of Mus musculus with 6 samples.

Results

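The TGF-beta, activin and myostatin system was followed through 10 genes in ischemic mouse muscle. They were the ligand genes Tgfb1, Tgfb2, Tgfb3 and Mstn, the activin subunit genes Inhba and Inhbb, the antagonist genes Fst and Fstl3, the receptor gene Acvr2b and the matrix gene Ltbp2. The genes were chosen by name with earlier results of these data known, so counts over them are descriptions. The estimated reads of each were summed over its transcripts by Entrez identifier in the deposited table. All 10 were among the 18089 genes listed, and all 10 passed the filter on low counts, which kept 14395 genes.

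RNA came from the whole gastrocnemius of the ligated limb of male C57BL/6 mice, 8 to 10 weeks old, 7 days after hindlimb ischemia (HLI), in which the femoral artery was tied off and cut out between the ties. The 2 groups were 3 wild-type (WT) mice and 3 mice labelled GPR174-KO, called Gpr174-/Y here, in which the X-linked gene of a lysophosphatidylserine receptor was disrupted. Every mouse of both groups had undergone HLI, and no uninjured muscle was analysed here, so the values compare genotypes within injured tissue. The knockout was not restricted to 1 cell type, and the libraries hold RNA of all cells of the muscle.

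The libraries held between 18417107 and 19394505 estimated reads. Gpr174 itself was counted 8, 2 and 5 times in the WT libraries and 1, 0 and 0 times in the Gpr174-/Y libraries, in the order of their replicate numbers. Of 20 genes of mature muscle fibres, which mark the labelled tissue, none was at 0 in all 6 libraries. The WT libraries differed among themselves more than the Gpr174-/Y libraries for most of the 10 genes, and WT replicate 3 was the WT library nearest to the Gpr174-/Y mean for 8 of the 10. Replicate 2 lay between replicates 1 and 3 for 9 of the 10 genes in WT and for 7 of the 10 in Gpr174-/Y muscle. Over 3859 abundant genes the same held for 86% and 76.5%. Both shares are larger than if each library of a group were equally often the middle one. The cause was not tested, and the p-values below take the libraries of a group as independent. Each value is therefore given by library, and p-values measure only the spread between these 6 libraries.

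Ligands of the TGF-beta family are secreted as precursors and act as dimers on pairs of type I and type II receptor kinases. The receptors for TGF-betas, activins and myostatin phosphorylate SMAD2 and SMAD3, which enter the nucleus with SMAD4 and change transcription. In skeletal muscle, myostatin and activins limit fibre mass, follistatin and its relative FSTL3 bind and block them, and TGF-betas are known for driving matrix production by fibroblasts after injury.

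Levels are given as counts per 1000000 reads (CPM) after scaling by TMM, edgeR's trimmed mean of M-values, which sets libraries to a common level by the bulk of their genes. Differences are log2 fold changes of Gpr174-/Y over WT from edgeR's quasi-likelihood test with standard errors (SE), and p-values are adjusted by the Benjamini-Hochberg method over all 14395 genes. Of the 10 genes, 7 were higher in Gpr174-/Y muscle at an adjusted p under 0.05, where 27% of all tested genes were called higher. Mstn was the 1 gene called lower, where 27.6% of all tested genes were called lower. Acvr2b and Fst were not called. With a 2-fold threshold added, 3 genes were higher (Inhba, Inhbb and Ltbp2) and 1 lower (Mstn), against 3.45% and 4.84% of all tested genes. The groups did not overlap in TMM-scaled CPM for 8 of the 10 genes, and this was the case for 65.6% of all tested genes. The median log2 fold change was 0.58 over the 10 genes and 0.00 over all genes tested.

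**Figure D1:**
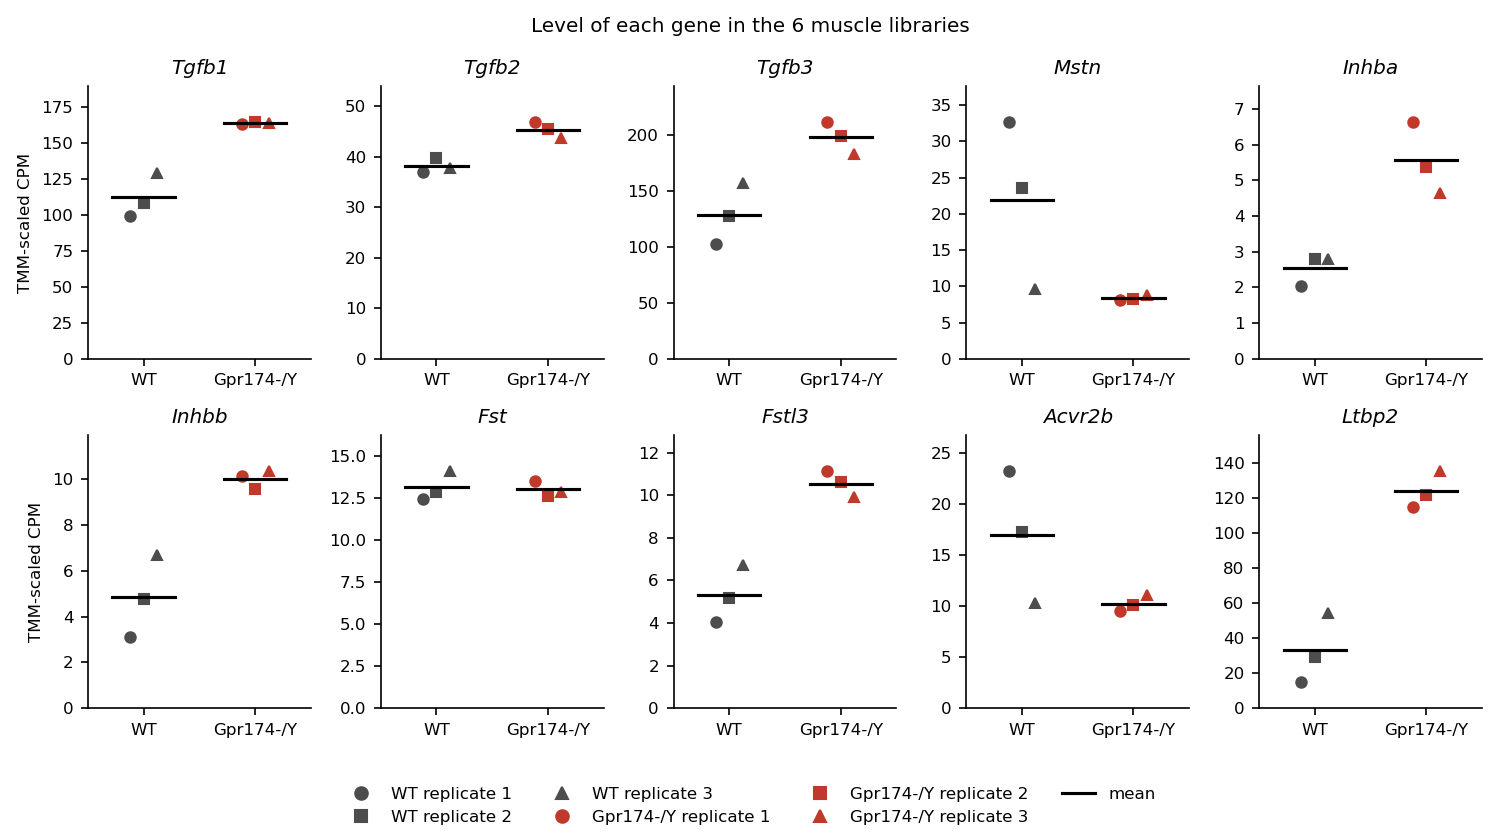
TMM-scaled CPM (vertical axes, each starting at 0) of the 10 genes in the 3 WT and 3 Gpr174-/Y libraries, with a symbol for each library and a line at the group mean. The Gpr174-/Y libraries lie close together for most genes, while WT values fan out, most of all for Mstn, with 32.7 to 9.61, and for Ltbp2, with 14.9 to 54.6.

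The start regions of the 4 genes past both thresholds are shown because these genes moved furthest, 3 of them upward and 1 downward. Each window runs from 250 bases before to 50 after the annotated start in RefSeq on GRCm38.p6 and is written 5′ to 3′ on the strand of the gene. Capitals mark matches on either strand to CANNTG (the E-box of myogenic and other helix-loop-helix factors), CAGAC (the core of the CAGA box that SMAD3 and SMAD4 bind), TGANTCA (the AP-1 site) and TATAAA (the TATA box). A window was found for 8 of the 10 genes, and Tgfb3 and Fst had none in the table used.
Mstn, chr1:53061390-53061689, plus strand: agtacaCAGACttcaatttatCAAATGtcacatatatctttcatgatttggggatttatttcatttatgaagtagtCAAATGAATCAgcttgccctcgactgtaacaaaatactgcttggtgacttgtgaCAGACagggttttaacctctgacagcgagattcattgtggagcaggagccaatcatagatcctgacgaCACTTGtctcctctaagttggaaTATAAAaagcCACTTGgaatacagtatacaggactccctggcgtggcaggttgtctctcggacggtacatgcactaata
Inhba, chr13:16011601-16011900, plus strand: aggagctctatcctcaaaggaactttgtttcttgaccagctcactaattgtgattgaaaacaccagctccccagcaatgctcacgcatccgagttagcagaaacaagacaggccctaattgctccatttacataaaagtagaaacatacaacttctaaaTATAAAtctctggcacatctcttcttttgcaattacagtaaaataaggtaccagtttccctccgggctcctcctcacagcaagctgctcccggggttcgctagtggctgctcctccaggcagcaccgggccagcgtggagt
Inhbb, chr1:119422199-119422498, minus strand: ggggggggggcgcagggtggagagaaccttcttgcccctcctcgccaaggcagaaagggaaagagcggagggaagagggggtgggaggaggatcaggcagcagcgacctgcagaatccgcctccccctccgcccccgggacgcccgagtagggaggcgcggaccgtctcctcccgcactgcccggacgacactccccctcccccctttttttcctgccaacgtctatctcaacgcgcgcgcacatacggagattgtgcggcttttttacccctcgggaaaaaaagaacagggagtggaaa
Ltbp2, chr12:84876442-84876741, minus strand: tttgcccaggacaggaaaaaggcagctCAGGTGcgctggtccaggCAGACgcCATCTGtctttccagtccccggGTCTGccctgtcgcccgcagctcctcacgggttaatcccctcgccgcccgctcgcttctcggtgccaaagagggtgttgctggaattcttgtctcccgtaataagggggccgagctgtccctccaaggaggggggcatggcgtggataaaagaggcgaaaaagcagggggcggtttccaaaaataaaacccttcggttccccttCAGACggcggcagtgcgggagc

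The Mstn window held 4 matches to CANNTG, 2 to CAGAC, 1 to TGANTCA and 1 to TATAAA, of which 1 pair overlapped. Ltbp2 had 2 matches to CANNTG and 3 to CAGAC. In the Inhba window there was 1 match, to TATAAA, and the Inhbb window held none. Among 32851 windows of the same length over all genes, CANNTG occurred in 72.3%, CAGAC in 49.6%, TGANTCA in 7.8% and TATAAA in 13.6%. Of the remaining windows, Tgfb2 had 1 match to CANNTG, 2 to CAGAC and 1 to TATAAA, Fstl3 had 3, 2 and 1, Acvr2b had 1 to CAGAC, and Tgfb1 had none. No searched motif was present in the windows of all the higher genes. A match describes letters in a window and does not show that a factor bound there.

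All 3 TGF-beta genes were higher in Gpr174-/Y muscle, by between 1.19-fold and 1.54-fold. Tgfb1 (Entrez 21803), whose product is the isoform best known for fibrosis and immune regulation, had 99.3, 108 and 129 CPM in WT replicates 1, 2 and 3 and 163, 165 and 163 CPM in Gpr174-/Y replicates 1, 2 and 3. The Gpr174-/Y values were nearly equal and all lay above the highest WT value. The log2 fold change of Tgfb1 was 0.55 (SE 0.096, adjusted p = 0.00389). In bulk muscle, fewer cells of a type and less RNA per cell cannot be told apart, for this gene and for those that follow. Macrophages and monocytes are a known source of Tgfb1 in injured muscle. Of 10 of their markers, 8 were higher and 0 lower, where 27% and 27.6% of all tested genes were called. Their summed level was 1123 to 1606 CPM in WT and 2633 to 2652 CPM in Gpr174-/Y muscle, with no marker at 0 in all libraries, and its part in the Tgfb1 result was not tested.

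Tgfb3 (Entrez 21809), an isoform studied for its part in wound healing, was at 102, 127 and 157 CPM in WT and at 212, 199 and 183 CPM in Gpr174-/Y replicates 1, 2 and 3. The lowest Gpr174-/Y library was above the highest WT library. Its log2 fold change was 0.62 (SE 0.15, adjusted p = 0.0127). Tgfb2 (Entrez 21808), the isoform known for its roles in heart and eye development, had 37.0, 39.6 and 37.8 CPM in WT and 46.9, 45.5 and 43.6 CPM in Gpr174-/Y muscle. Both groups were tight and did not overlap. The difference was the smallest of the 7 called higher, with a log2 fold change of 0.25 (SE 0.053, adjusted p = 0.00742).

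The proportions between the isoforms were compared within each library, where scaling between libraries cancels. Tgfb2 reads per Tgfb1 read were 0.373, 0.365 and 0.293 in WT and 0.287, 0.276 and 0.267 in Gpr174-/Y muscle. Every Gpr174-/Y ratio was below every WT ratio, with a mean 1.24-fold lower and an exact 2-sided permutation p of 0.1. This is the smallest p that 3 libraries against 3 allow, so the design cannot reach 0.05, and after adjustment over 6 ratios p was 0.3. The ratio of Tgfb3 to Tgfb1 was 1.03, 1.18 and 1.22 in WT and 1.30, 1.21 and 1.12 in Gpr174-/Y muscle. The groups overlapped (exact permutation p = 0.5, adjusted p = 0.75). Of the FPKM (fragments scaled to transcript length and library size) of the 3 isoforms together, Tgfb1 made up between 51.4% and 55.2% in every library, so it was the leading isoform in both genotypes.

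Both activin subunit genes were about doubled in Gpr174-/Y muscle from low levels. Inhba (Entrez 16323), which encodes the subunit of activin A, had 2.05, 2.80 and 2.81 CPM in WT and 6.64, 5.37 and 4.65 CPM in Gpr174-/Y muscle. All Gpr174-/Y libraries were above all WT libraries, and within-group spread was similar in both groups. The log2 fold change was 1.11 (SE 0.19, adjusted p = 0.00328), a 2.16-fold difference and the lowest p among the 10 genes. Inhbb (Entrez 16324), which encodes the subunit of activin B, had 3.11, 4.76 and 6.69 CPM in WT and 10.1, 9.56 and 10.3 CPM in Gpr174-/Y muscle. WT values spread over a 2.15-fold range and Gpr174-/Y values over a 1.08-fold range, without overlap. Its log2 fold change was 1.03 (SE 0.23, adjusted p = 0.00902). The 2-fold threshold was near both values, and without WT replicate 1 the log2 fold changes were 0.99 for Inhba and 0.81 for Inhbb, both still past the adjusted p threshold.

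Inhba reads per Inhbb read did not separate the genotypes. The ratio was 0.663, 0.590 and 0.419 in WT and 0.656, 0.564 and 0.450 in Gpr174-/Y muscle, and the ranges largely coincided (exact permutation p = 1). The mean difference was 0.01 on the log2 scale, with a pooled SD of 0.31 over 3 libraries a group.

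Mstn (Entrez 17700), whose product myostatin is made mainly by muscle fibres and restrains their growth, was the only one of the 10 genes called lower. It had 32.7, 23.5 and 9.61 CPM in WT replicates 1, 2 and 3 and 8.17, 8.24 and 8.84 CPM in Gpr174-/Y replicates 1, 2 and 3. WT replicate 3 sat just above the Gpr174-/Y libraries, far from WT replicate 1, while the Gpr174-/Y libraries were nearly equal. The log2 fold change was -1.38 (SE 0.40, adjusted p = 0.0246), which is 2.6-fold lower. This call was not stable, since it held in 7 of 17 alternative fits, whose log2 fold changes ran from -1.73 to -0.79 and adjusted p from 4.91e-05 to 0.177. Without WT replicate 3 the log2 fold change was -1.73, and without any 1 of the other 5 libraries the call was lost. With total counts in place of TMM, where all genes shift upward by a median of 0.28, the call held at -1.09 but the groups overlapped, since WT replicate 3 had 9.15 CPM and Gpr174-/Y replicate 3 had 9.91. With the replicate number as a block the adjusted p was 0.0518.

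Markers of mature muscle fibres fell alongside Mstn. All 20 of 20 listed fibre genes were called lower, where 27.6% of all tested genes were. Under total-count scaling it was 19 of 20, where 14.0% of all tested genes were called lower. Together the fibre genes took 20.85%, 18.94% and 16% of the reads in WT replicates 1, 2 and 3. In Gpr174-/Y muscle they took 9.12%, 8.86% and 8.46%. Their order across the WT libraries was that of Mstn, and their order across the Gpr174-/Y libraries was the reverse of it. Mstn reads per 1000000 reads of these 20 genes were 137, 112 and 57.2 in WT and 96.7, 102 and 117 in Gpr174-/Y muscle. On this scale the Gpr174-/Y libraries lay inside the WT range, with a mean difference of 0.13 on the log2 scale (pooled SD 0.48, exact permutation p = 0.9), which became -0.24 without WT replicate 3.

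**Figure D2:**
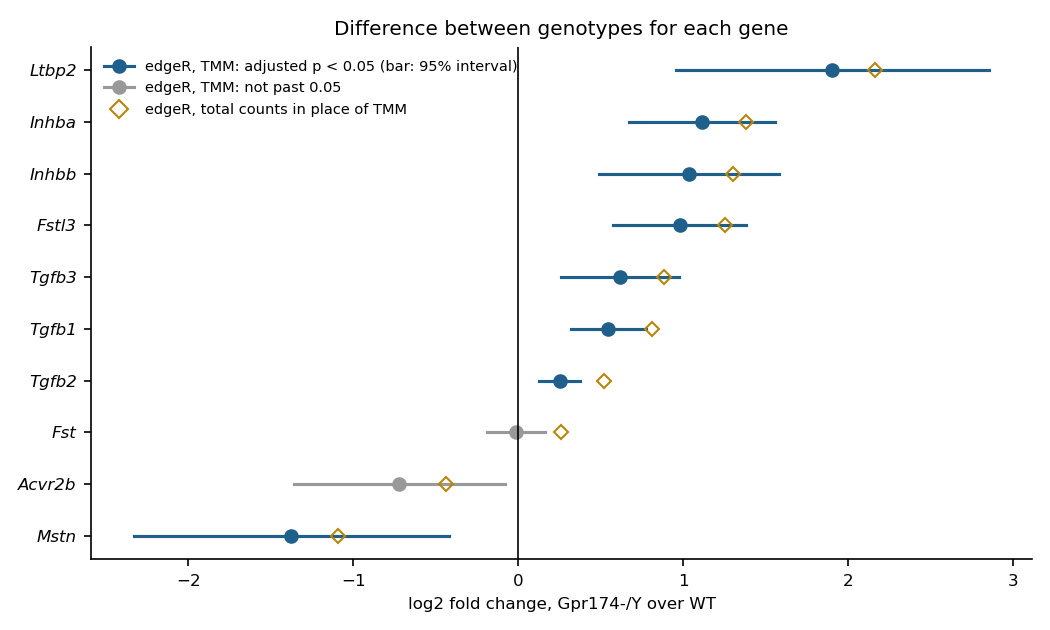
Log2 fold change of Gpr174-/Y over WT (horizontal axis) for the 10 genes, with circles for the edgeR estimate and bars for its unadjusted 95% interval, and open diamonds for the estimate with total counts in place of TMM. The interval of Fst spans 0 from -0.19 to 0.16, its diamond lies at 0.26, and the Acvr2b interval ends short of 0 although its adjusted p is 0.0571.

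Of the 2 antagonist genes, Fstl3 rose in Gpr174-/Y muscle and Fst was not called on the TMM scale. Fstl3 (Entrez 83554), a secreted relative of follistatin that binds activins and myostatin, had 4.04, 5.18 and 6.74 CPM in WT and 11.1, 10.6 and 9.91 CPM in Gpr174-/Y muscle. Every Gpr174-/Y library was above every WT library. The log2 fold change was 0.98 (SE 0.17, adjusted p = 0.00368), which is 1.97-fold. Fst (Entrez 14313), which encodes follistatin, the soluble blocker of activins and myostatin, had 12.4, 12.9 and 14.1 CPM in WT and 13.5, 12.6 and 12.9 CPM in Gpr174-/Y muscle. The groups overlapped throughout. Its log2 fold change was -0.01 (SE 0.073, adjusted p = 0.877), with a 95% interval from -0.19 to 0.16. That estimate depended on scaling, since with total counts, which shift all genes by a median of 0.28, Fst was called higher at 0.26 (adjusted p = 0.0443) and its groups no longer overlapped.

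Set against its targets within each library, Fst was lower relative to Inhba in Gpr174-/Y muscle. There were 6.04, 4.57 and 5.04 Fst reads per Inhba read in WT and 2.04, 2.34 and 2.77 in Gpr174-/Y muscle. The groups were well apart, with a mean 2.19-fold lower and an exact permutation p of 0.1, the smallest possible (adjusted p = 0.3). Fst reads per Mstn read were 0.380, 0.547 and 1.47 in WT and 1.66, 1.53 and 1.46 in Gpr174-/Y muscle. Here WT replicate 3 fell among the Gpr174-/Y libraries and the other WT libraries lay below them (exact permutation p = 0.2, adjusted p = 0.4). With FPKM in place of reads the Fst to Mstn ratio of WT replicate 3 was 1.483, just under the lowest Gpr174-/Y ratio of 1.491. On that scale the groups no longer overlapped (exact permutation p = 0.1, the smallest possible, not adjusted). The FPKM of Fst depends on the split of its reads among transcripts. Of its 4 listed transcripts, 2 were at 0 in some library and at 20 or more reads in another.

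**Figure D3:**
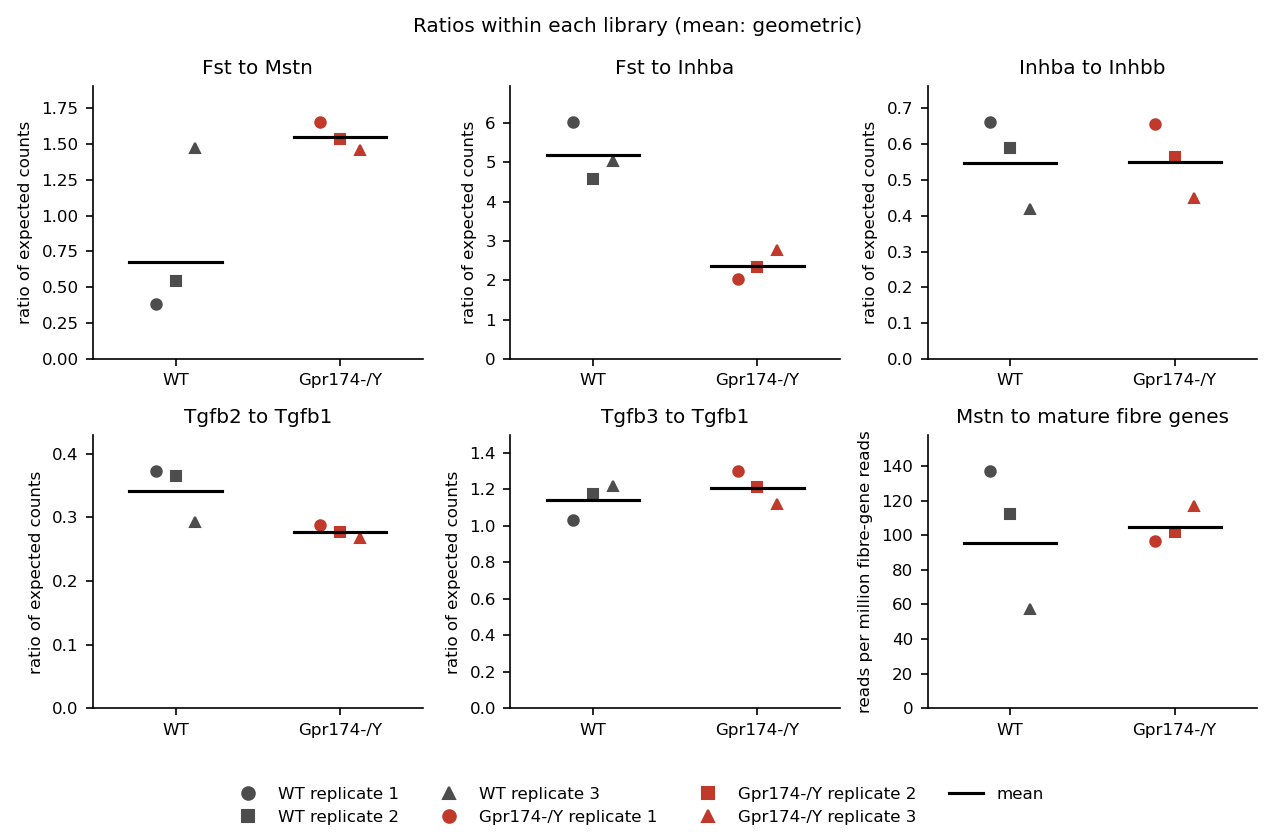
Ratios of expected counts within each library (vertical axes, starting at 0) for 6 pairs, with a symbol for each library and a line at the geometric mean, the last panel being Mstn reads per 1000000 reads of 20 mature fibre genes. Fst to Inhba separates the groups, from 4.57 to 6.04 in WT and from 2.04 to 2.77 in Gpr174-/Y muscle, while Inhba to Inhbb and Mstn to fibre genes overlap.

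Acvr2b (Entrez 11481), a type II receptor that binds activins and myostatin, had 23.3, 17.3 and 10.3 CPM in WT and 9.51, 10.1 and 11.1 CPM in Gpr174-/Y muscle. WT replicate 3 lay among the Gpr174-/Y libraries, and the other WT libraries lay above them. The log2 fold change was -0.72 (SE 0.27, adjusted p = 0.0571), which misses the threshold. Over 17 alternatives the adjusted p ran from 0.000463, without WT replicate 3, to 0.269, and DESeq2's Wald test gave 0.0217. The split of Acvr2b reads among transcripts was unstable, since 3 of its 4 listed transcripts were at 0 in some library and at 20 or more reads in another. Only the gene's sum was therefore compared.

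Ltbp2 (Entrez 16997) had the largest difference of the 10 genes. It encodes a matrix protein of the latent TGF-beta binding protein family that associates with fibrillin and, unlike its relatives, is not known to hold latent TGF-beta. Ltbp2 was at 14.9, 29.5 and 54.6 CPM in WT and at 115, 122 and 135 CPM in Gpr174-/Y muscle. WT libraries spread over a 3.66-fold range, and the lowest Gpr174-/Y library was still above the highest WT library. The log2 fold change was 1.90 (SE 0.40, adjusted p = 0.00726), a 3.74-fold difference, and leaving out 1 library at a time gave 1.57 to 2.48. Among 4 listed Ltbp2 transcripts, 3 were at 0 in some library and at 20 or more reads in another. Of 10 markers of fibroblasts and fibro-adipogenic cells, a source of such matrix proteins, 4 were higher and 4 lower. The shares called over all tested genes were 27% and 27.6%. The markers summed to 2371 to 3230 CPM in WT and 3973 to 4347 CPM in Gpr174-/Y muscle, with none at 0 in all libraries. Most of the sum, and its rise, lay in the collagen genes on the list. These were Col6a1 (mean 996 CPM in WT and 1423 CPM in Gpr174-/Y muscle) and Col5a1 (892 and 1946 CPM). The sum of the list is therefore no measure of these cells, and their part in the Ltbp2 result was not tested.

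Levels of different genes were ordered by FPKM, summed over the transcripts of each gene. FPKM depends on how reads are split among transcripts. Besides Acvr2b and Ltbp2, the split was unstable for Fst (2 of 4 listed transcripts) and Tgfb2 (1 of 4), counted in the same way. In WT muscle Tgfb1 led with 48.2 ± 8.65 FPKM (SD, n = 3), followed by Tgfb3 with 35.4 ± 9.02, and their ranges overlapped. Below a clear gap came Mstn (7.40 ± 3.69), Tgfb2 (6.74 ± 0.40), Ltbp2 (4.62 ± 3.0) and Fst (4.52 ± 0.52), each overlapping the gene above it. Fstl3 (2.56 ± 0.76), Acvr2b (1.46 ± 0.51) and Inhbb (1.06 ± 0.43) formed a lower set with overlapping neighbours. Inhba was lowest, at 0.347 ± 0.067 FPKM, apart from Inhbb.

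In Gpr174-/Y muscle Tgfb1 (84.7 ± 1.68 FPKM, SD, n = 3) and Tgfb3 (65.2 ± 3.62) again led, now without overlap. Ltbp2 stood in the third place with 20.6 ± 2.08 FPKM, a place it also had in WT replicate 3, above Tgfb2 (9.75 ± 0.14), Fstl3 (6.08 ± 0.24) and Fst (5.46 ± 0.19). Mstn was in the seventh place, at 3.48 ± 0.22 FPKM. By the WT mean it held the third place, which came from replicates 1 and 2, with 10.75 and 8.0 FPKM, while in WT replicate 3 it was at 3.44 FPKM, the sixth of the 10 genes and within the Gpr174-/Y range of 3.32 to 3.73. Inhbb (2.61 ± 0.13), Acvr2b (1.07 ± 0.10) and Inhba (0.923 ± 0.15) came last, and only Acvr2b and Inhba overlapped among neighbours. FPKM was scaled by total reads, so the difference between groups for a gene is read from the TMM-scaled test above. By TPM the order was the same for all 10 genes in both groups.

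**Figure D4:**
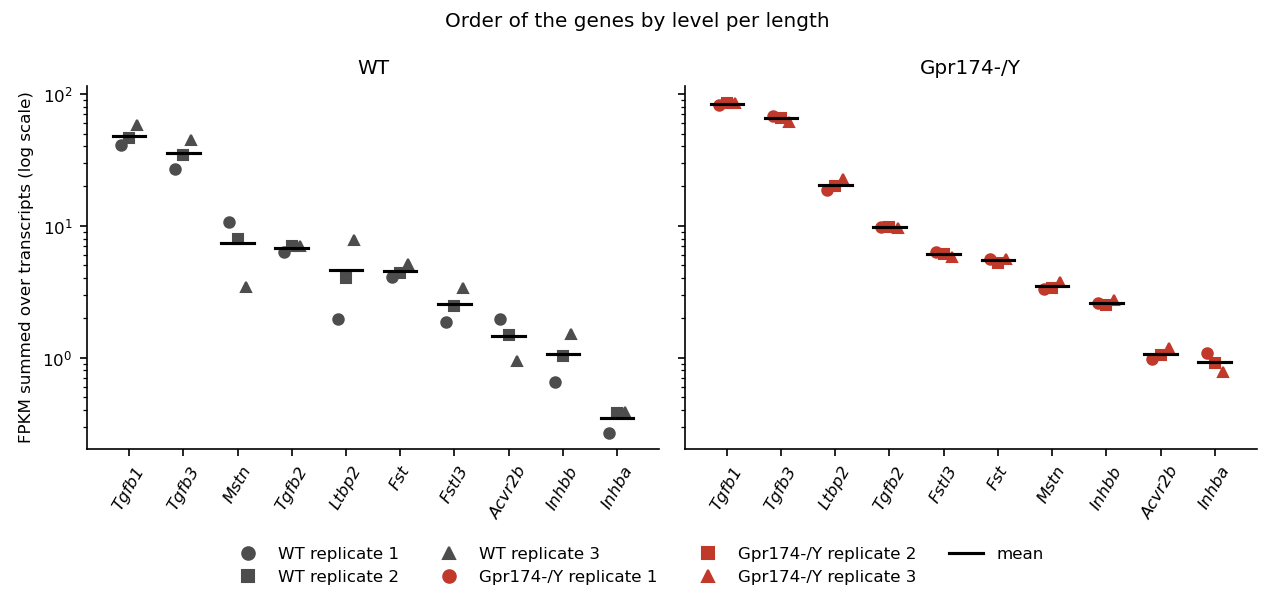
FPKM of the 10 genes (vertical axes, log scale), ordered by group mean from left to right, in the 3 WT libraries on the left and the 3 Gpr174-/Y libraries on the right, with lines at the means. Tgfb1 and Tgfb3 lead in both genotypes, Mstn is in the third place by the WT mean and the seventh in Gpr174-/Y muscle, and Ltbp2 is in the fifth and the third, but in WT replicate 3 Mstn (3.44) lies within its Gpr174-/Y range.

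For the higher and the lower gene with the lowest p, the tested genes with the most similar pattern over the 6 libraries were found by Pearson's r of TMM-scaled log2 CPM. Closest to Inhba were Impa1 (r = 0.999), Pes1 and Ints5 (r = 0.998 and 0.996). Closest to Mstn were Amd1 (r = 0.9997), Arhgap18 (r = 0.999) and Nbr1 (r = 0.9989). With 6 libraries that fall into 2 groups such values are common, and 1353 of 13635 genes had an r over 0.95 with Inhba and 813 with Mstn.

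The other genes of the pathway were taken from lists by role. Of 76 tested, 43 were higher and 12 lower in Gpr174-/Y muscle at an adjusted p under 0.05, where 27% and 27.6% of all tested genes were called. With total counts in place of TMM the split was 54 and 5, where 50.7% of all tested genes were called higher and 14.0% lower. The median log2 fold change was 0.00 for other ligands, 0.44 for latency and activation genes, -0.17 for other antagonists, -0.01 for other receptors and 0.21 for SMAD factors and regulators, against 0.00 over all genes tested. Among other ligands, 1 of 6 was higher and 2 lower. Gdf3 rose from 2.93 to 7.92 CPM (log2 fold change 1.42), Gdf10 fell from 14.98 to 10.5 CPM (-0.51), and Gdf11, a close relative of Mstn, fell from 18.7 to 15.8 CPM (-0.24), but under total-count scaling Gdf11 was at 0.03 and neither Gdf10 nor Gdf11 was called.

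Genes that hold TGF-beta latent in the matrix or release it were mostly higher, 11 of 17 with 2 lower. Over all tested genes 27% were called higher and 27.6% lower. Higher ones included Itgb5, an integrin subunit (log2 fold change 0.63), and the fibrillin genes Fbn1 (0.90) and Fbn2 (1.43). Ltbp4, which tethers latent TGF-beta and is a relative of Ltbp2, fell from 286.0 to 157.7 CPM (-0.86, adjusted p = 0.00062). It moved in the opposite direction to Ltbp2 under both TMM and total-count scaling. The other LTBP genes, Ltbp1 (0.43, edgeR adjusted p = 0.0266) and Ltbp3 (0.18, edgeR adjusted p = 0.0384), were called higher with TMM. The integrin gene Itgb6 was also lower (-0.45), a call that was lost with total counts. Among 8 other antagonists 3 were higher and 3 lower, beside the same shares over all tested genes. Of the small proteoglycans that bind TGF-beta, Bgn rose (1.04) while Dcn (-0.57) and Fmod (-0.47) fell, and Wfikkn2, which encodes a myostatin inhibitor, also fell (-0.56).

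Of 9 other receptor genes 4 were higher and 2 lower, where 27% and 27.6% of all tested genes were called. Tgfbr1 (log2 fold change 0.55) and Tgfbr2 (0.40), which together form the TGF-beta receptor, rose with their ligands. Acvr1, which encodes a type I receptor, rose by 0.25. Acvr1c, which encodes another, rose by 0.86 from a low level (1.56 to 2.85 CPM, edgeR adjusted p = 0.0347). Acvr1b, which encodes a type I receptor that can partner ACVR2B for activin and myostatin, fell from 52.8 to 37.4 CPM (-0.50). The co-receptor gene Eng fell by 0.27 on the log2 scale. The calls of Acvr1b and Eng were both lost with total counts. Among 14 SMAD factors and their regulators 8 were higher and 2 lower, beside the same shares over all tested genes. The corepressor genes Tgif2 (0.75), Tgif1 (0.66) and Skil (0.62) were among the higher ones. Zfyve9, which encodes an anchor that presents SMADs to the receptor, fell by 0.61 on the log2 scale, and Smad3 by 0.34, the latter not called with total counts (-0.06).

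Of 25 genes known to respond to TGF-beta, 18 were higher and 1 lower, where 27% and 27.6% of all tested genes were called. Their median log2 fold change was 0.79. With total counts in place of TMM the split was 21 and 0, where 50.7% and 14.0% of all tested genes were called. Snai1 (1.17), Acta2 (1.2) and Tgfbi (1.05) had the lowest p among the higher ones, and Id1, a target of the BMP branch that TGF-beta can repress, fell (-0.49, not called with total counts). Several of these genes are also matrix or smooth muscle genes that are expressed by fibroblasts, and their part was not tested.

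**Figure D5:**
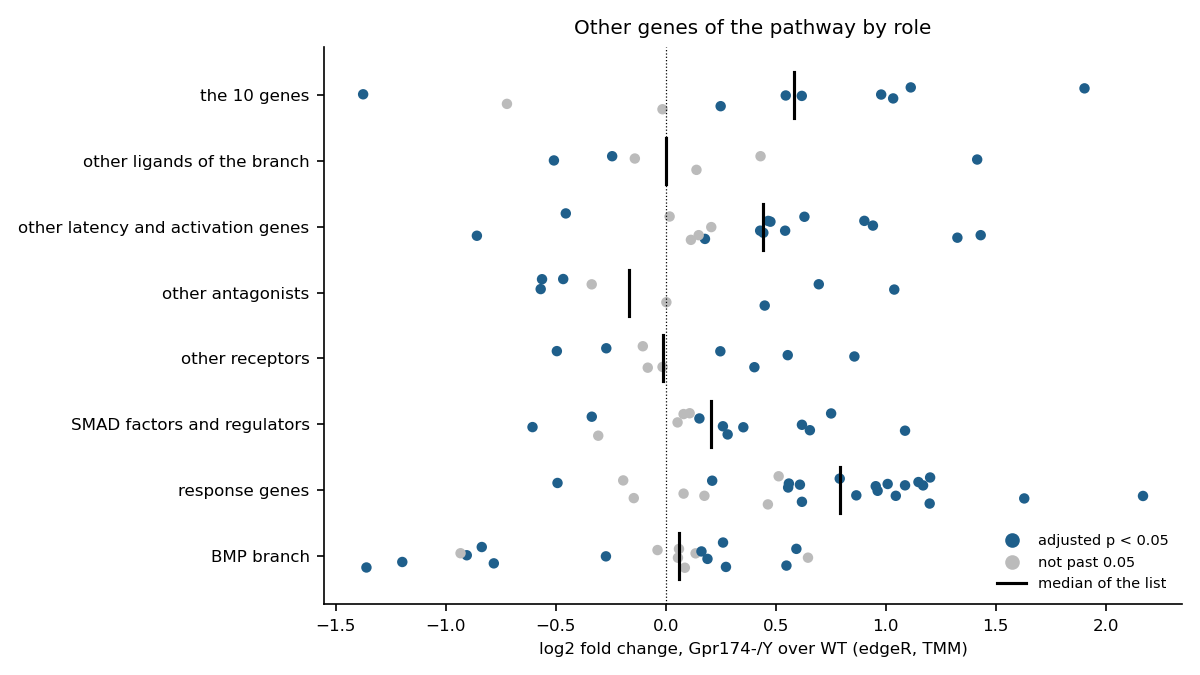
Log2 fold change of Gpr174-/Y over WT (horizontal axis) for each tested gene of the pathway, by role, with filled blue points for an adjusted p under 0.05, grey points for the rest and black lines at list medians. Response genes lie furthest to the right with a median of 0.79, while other receptors and other ligands centre near 0.

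Other cell type markers moved between the genotypes as well, where 27% of all tested genes were called higher and 27.6% lower. Of 10 genes of regenerating fibres 7 were higher and 0 lower. Their summed level was 6857 to 9103 CPM in WT and 8275 to 10330 CPM in Gpr174-/Y muscle, with overlap. Most of that sum came from Actc1, Myh8 and Myh3 (means of 3801, 2161 and 1104 CPM in WT), which were not called. Endothelial markers were lower in 10 of 11 cases and higher in 1, with 1161 to 1364 CPM in WT and 730.6 to 831.6 CPM in Gpr174-/Y muscle. Satellite cell markers (4 of 7 higher, 2 lower), smooth muscle markers (2 of 7 higher, 3 lower) and adipocyte markers (2 of 5 higher, 1 lower) were mixed. Of 7 neutrophil markers listed only 2 were tested, with 1 higher and 1 lower. Of 9 T cell and Treg markers listed only 6 were tested, and 0 were higher and 1 was lower. Foxp3 was not among those tested, so the count does not describe Tregs. The part of these shifts in the values of the 10 genes was not tested.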

How the data were processed

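The genotypes were compared in 6 bulk RNA-seq libraries, 3 per genotype. The authors sequenced total RNA on the BGISEQ-500 platform and called genes with DEGseq, while the sample labels name an Illumina TruSeq kit. The submitters' processing notes name HISAT2 2.0.4, Bowtie2 2.2.5, RSEM 1.2.12 and the build GRCm39, and strand use is not given in the sources used here. The authors deposited 1 table of 58843 transcripts with expected counts (estimated reads, not normalized), FPKM (scaled for length and total reads) and TPM for each library. The deposited table's group means were not used, and 0 per-sample columns were left unmapped.

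Expected counts were summed per gene, rounded and compared in edgeR 4.0.16 (R 4.3.3) with filterByExpr, TMM, robust quasi-likelihood fits and genotype as the only term. A symbol was found for 99.7% of genes. Calls required an adjusted p under 0.05, to which a 2-fold threshold (1 on the log2 scale, either way) was added where stated. Ratios were compared with the 2-sided exact permutation test (scipy 1.17.1). Named were the 10 genes, Gpr174, the 3 genes with the lowest p in each direction per pathway list (mean of at least 1 CPM), and the 3 most similar to Inhba and Mstn. Ltbp1, Ltbp3, Acvr1c and single cell type markers were named in addition. The 10 genes and all lists were chosen with earlier results of these data known, so counts over them are descriptions. When tested on simulated data of 14264 genes, the fit recovered 100% of 200 genes changed by 1.5 on the log2 scale and called 10 others. The changed genes were drawn from abundant ones, and all genes had the same spread setting. The recovery therefore does not describe smaller differences, genes with few reads such as Inhba, or genes with a wide WT spread.

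Alternatives were DESeq2 1.42.0 (size factors in edgeR, and its Wald test), upper-quartile and total-count scaling, limma 3.58.1 (voom, and on log2 of FPKM plus 1 or plus 0.1, where an FPKM of 1 was reached in 3 or more libraries), a fit without the filter, a minimum of 10 counts in all libraries, a replicate block, and leaving out each library. A fit on replicates 1 and 3 of each group was added after seeing the data. Same-numbered libraries were different mice and did not deviate together (r of -0.026, -0.011 and -0.037).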

Additional observations from a re-analysis of the deposited data

How the results depend on the processing

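The 7 higher genes kept their direction in every fit in which they were tested (Inhba was under the FPKM filter, so 15 of 17 fits), and each was called in every one but the fit on replicates 1 and 3 of each group, an alternative added after seeing the data. In that edgeR fit 0 of the 10 genes, 0 of the 76 other pathway genes and 0 of all 14447 genes passed (smallest adjusted p 0.0542), while 7, 38 and 5026 had an unadjusted p under 0.05, and no other tool was run on those 4 libraries. Past the 2-fold threshold, 4 of the 10 genes became 2 with limma on log2(FPKM + 1), 0 with replicates 1 and 3 only, and 1 (without WT replicate 1) to 5 (without WT replicate 3) when 1 library was left out, with 2 without Gpr174-/Y replicate 1. Over all genes, 496 higher and 696 lower became 483 and 162 with log2(FPKM + 1), and 892 and 934 without WT replicate 3. Higher and lower calls over all genes went from 3891 and 3972 to 7303 and 2010 with total counts.

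Fst changed sign to 0.01 with upper-quartile scaling, 0.26 with total counts, and 0.23 and 0.27 with limma on log2(FPKM + 1) and log2(FPKM + 0.1). It was also 0.01 without Gpr174-/Y replicate 2 and 0.05 without WT replicate 3, with leave-one-out values from -0.04 to 0.05. Fst was called higher in 3 of 17 fits, with total counts and with both limma fits on FPKM (limma adjusted p = 0.0351 and 0.0362). The call of Mstn was lost in 10 of 17 fits and that of Acvr2b gained in 2, as given above. With the replicate block 7 of the 10 genes (Mstn lost) and 48 of the other 76 were called. The labels do not say what the replicate numbers stand for, so a shared source of same-numbered libraries is not known. The block changed no other call among the 10 genes. The mean log2 ratios moved by less than 1 pooled SD in all 42 comparisons, but near 0 the sign was not stable. With 1 library left out, Inhba to Inhbb ran from -0.19 to 0.15 and Mstn to fibre genes from -0.24 (without WT replicate 3) to 0.39, and no exact p could pass 0.05. Of 168 comparisons of single genes, 143 kept direction and call. The cause of these changes was not tested. At 2.05 to 6.64 CPM, Inhba rests on the fewest reads of the 10 genes.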

Other observations

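The BMP branch of the same family signals through SMAD1, SMAD5 and SMAD9. Of 19 of its genes tested, 6 were higher and 6 lower in Gpr174-/Y muscle, shares near the 27% and 27.6% called over all genes. With total counts in place of TMM the split was 10 and 4, where 50.7% and 14.0% of all genes were called. The BMP antagonist gene Chrd rose from 13.8 to 20.9 CPM (log2 fold change 0.59, SE 0.072, edgeR adjusted p = 0.00131), the receptor gene Bmpr1b from 7.66 to 11.2 CPM (0.55) and the transducer gene Smad5 from 61.4 to 70.1 CPM (0.19). Among ligands, Bmp5 fell from 7.34 to 4.10 CPM (-0.84) and Bmp7 from 1.56 to 0.598 CPM (-1.36, edgeR adjusted p = 0.0113). The receptor gene Bmpr1a was at 109.0 CPM in WT and 90.3 CPM in Gpr174-/Y muscle, a log2 fold change of -0.27 that was 0.00 with total counts and not called there.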
